A study of Homo sapiens with 8 samples.

Results

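Integrins and laminins are the receptors and the ligands by which epithelial cells hold on to a basement membrane. The set described here holds the 38 protein-coding genes that encode integrin α subunits (18), integrin β subunits (8) and laminin chains (12: 5 α, 4 β and 3 γ), chosen by gene name alone out of 58735 genes in the table. Of these 38 genes, 22 (13 integrin and 9 laminin genes) reached at least 1 FPKM in at least 2 libraries and were tested. FPKM count fragments for each kilobase of a gene and are scaled for the size of the library, so levels of different genes can be set side by side.

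RNA was sequenced from 3 groups, all of the human hepatic progenitor line HepaRG or of 1 derivative of it. M14A printed (2 libraries) are M14A cells, whose genotype label reads FoxM1/HNF4A transfected, mixed with the GP bioink and collected 4 h after they had been printed. M14A plate (3 libraries) are the same cells grown flat in culture flasks, and HepaRG plate (3 libraries) are HepaRG cells labelled wild type and grown in the same way. The printed material was snap-frozen and crushed before RNA was extracted, whereas flask cells were detached by digestion and spun down. Printing, the bioink and the way of collection therefore cannot be told apart. Both M14A groups share the transfection, and the labels do not say whether M14A is a single clone or whether the numbered libraries came from separate cultures. The p-values below measure only the spread between these libraries.

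An integrin is a pair of 1 α and 1 β subunit that spans the cell membrane, binds matrix outside and links to actin through talin and kindlin inside. The α subunit largely sets the ligand: α1, α2, α10 and α11 bind collagens, α3, α6 and α7 bind laminins, α5, α8, αV and αIIb bind proteins with the short RGD motif such as fibronectin and vitronectin, and αD, αE, αL, αM and αX are known from leukocytes. A laminin is a cross-shaped trimer of 1 α, 1 β and 1 γ chain, named by the numbers of its chains, and its α chain carries the main binding site for integrins. In healthy liver the sinusoids lack a continuous basement membrane, while bile ducts and vessels have one, and hepatocytes are known for α1β1 and α5β1.

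The labels were checked first. The transcription factor gene HNF4A measured 17.1 and 13.6 FPKM in the printed libraries, 37.9, 43.1 and 41.7 FPKM in the M14A plate libraries and 5.67, 6.24 and 6.50 FPKM in the HepaRG plate libraries. FOXM1, a cell cycle regulator, measured 10.1 and 10.1 FPKM in the printed libraries, 13.0, 10.4 and 8.92 FPKM in the M14A plate libraries and 12.9, 13.7 and 14.9 FPKM in the HepaRG plate libraries. M14A plate overlapped HepaRG plate through library 1, and both printed values lay below all HepaRG plate values. FOXM1 RNA was therefore not higher in the M14A libraries. The FPKM recover 15632154 to 19148262 reads per library, and 1 read in a gene of 1 kb is worth 0.0435 to 0.0747 FPKM. Reads of mitochondrially encoded genes made up 13.3 and 16.4% of the printed libraries, 8.21 to 9.72% of the M14A plate libraries and 6.91 to 7.25% of the HepaRG plate libraries. M14A plate library 1 differed from both other M14A plate libraries along the GC content of transcripts, with Spearman's rho of 0.66 over 14337 genes for the log2 difference (a description across genes, which are not replicates), and results whose call or size changed most without it are given below without it too. Markers of other cell types (5 genes per list) were low for endothelium, whose summed level was 1.58 and 1.98 FPKM in printed, 1.65 to 2.35 FPKM in M14A plate and 1.01 to 1.22 FPKM in HepaRG plate libraries, with CDH5 at 0 throughout. KDR, the 1 endothelial marker tested, was higher in M14A plate (mean 1.42 FPKM) than in HepaRG plate (0.545 FPKM, limma adjusted p = 0.00424). The platelet list summed to 0.596 and 0.776 FPKM in printed, 0.926 to 1.14 FPKM in M14A plate and 0.584 to 1.27 FPKM in HepaRG plate libraries, with PF4 and GP9 at 0 throughout.

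The promoter stretches shown here belong to members whose RNA differed most between the 2 lines grown in flasks and for which a stretch of at least 100 bases upstream of the RefSeq start held no base of an annotated exon. They are RefSeq sequences of build GRCh38.p14, written 5′ to 3′ on the minus strand, which is the strand of all 5 genes. Capitals mark matches to the Sp1 motif GGGCGG on either strand.
ITGA11, chr15:68432164-68432413: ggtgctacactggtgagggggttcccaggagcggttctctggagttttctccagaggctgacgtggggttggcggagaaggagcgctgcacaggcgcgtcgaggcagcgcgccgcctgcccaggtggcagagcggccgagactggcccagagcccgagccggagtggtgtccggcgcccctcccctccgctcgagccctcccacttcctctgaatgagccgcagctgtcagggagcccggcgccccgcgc
ITGA10, chr1:145910190-145910300: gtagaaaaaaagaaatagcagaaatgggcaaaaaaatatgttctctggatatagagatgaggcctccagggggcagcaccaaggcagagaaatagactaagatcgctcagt
LAMB1, chr7:108003256-108003411: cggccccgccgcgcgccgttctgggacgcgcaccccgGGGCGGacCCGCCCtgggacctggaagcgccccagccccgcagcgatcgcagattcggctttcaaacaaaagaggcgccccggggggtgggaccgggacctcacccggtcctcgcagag
LAMB3, chr1:209652467-209652675: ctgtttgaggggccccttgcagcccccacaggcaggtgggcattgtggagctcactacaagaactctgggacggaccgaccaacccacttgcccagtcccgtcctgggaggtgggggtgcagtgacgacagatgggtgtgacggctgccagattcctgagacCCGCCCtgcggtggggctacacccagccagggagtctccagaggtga
LAMA5, chr20:62367313-62367562: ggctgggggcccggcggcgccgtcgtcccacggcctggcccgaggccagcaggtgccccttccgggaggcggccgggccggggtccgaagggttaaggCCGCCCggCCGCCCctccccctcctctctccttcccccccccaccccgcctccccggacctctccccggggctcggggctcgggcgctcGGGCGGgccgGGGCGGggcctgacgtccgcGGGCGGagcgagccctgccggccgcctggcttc
Over the full window of 250 bases before the start, LAMA5 held 32 CpG dinucleotides, LAMB1 28, ITGA11 23, LAMB3 8 and ITGA10 1, against a median of 11 over 35116 RefSeq promoters. A promoter entry was found for 26 of the 38 members. Sp1 matches occurred in 11 of the 19 tested members with an entry (57.9%) and in 42.6% of all promoters. LAMA5 held 5 such matches, LAMB1 4 and LAMB3 1, and the LAMB1 matches nearest the start lie outside the stretch printed above. The hepatocyte motif CAAAGTCCA of HNF4 was found in 0 of the 26 windows and in 0.325% of all promoters. The AP-1 motif TGANTCA was found in 1 member, LAMA3, and in 6.57% of all promoters. The TEAD motif GGAATG was found in 4 of the 19 tested members, ITGA10, ITGA5, ITGB1 and LAMA2, and in 11.9% of all promoters. TATAAA was found in ITGA6 alone among the 19, and in 10.7% of all promoters. All motifs were searched on both strands, and a match describes the letters only.

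The genes for a fibronectin receptor and a laminin receptor dominated the integrins in all 8 libraries. ITGA5, whose product pairs with β1 to bind fibronectin, averaged 187 ± 19.4 FPKM in printed (SD, n = 2), 182 ± 18.3 FPKM in M14A plate (n = 3) and 101 ± 4.24 FPKM in HepaRG plate libraries (n = 3). ITGA3, whose product pairs with β1 to bind laminins of the α3 and α5 type, averaged 152 ± 32.2 FPKM in printed, 192 ± 58.5 FPKM in M14A plate and 112 ± 3.53 FPKM in HepaRG plate libraries. Both together made up 78.2 to 95.04% of the summed FPKM of the 18 α genes. ITGB1, the common partner of 12 α subunits, took 85.2 and 89.9% of the summed β level in printed, 63.1 to 86.6% in M14A plate and 75.7 to 77.7% in HepaRG plate libraries. ITGB5 and ITGAV, the chains of a vitronectin receptor, came next, with means of 16.8 to 30.0 FPKM and 22.1 to 32.6 FPKM over the 3 groups.

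Among laminin chains, LAMB2 and LAMC1 had the highest means in HepaRG plate, at 56.1 ± 1.89 and 39.4 ± 2.63 FPKM. The remaining 16 members did not reach the level needed for a test, and all of their group means were under 1 FPKM (0 to 0.950 FPKM). They include ITGA2B, ITGA4, ITGA8, ITGA9, ITGAD, ITGAL, ITGAM, ITGAX, ITGB2, ITGB3, ITGB4, ITGB6, ITGB7, LAMB4 and LAMC3. Among them are the β2 subunit of leukocytes, the β4 subunit of hemidesmosomes, and both chains of the platelet fibrinogen receptor.

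**Figure D1:**
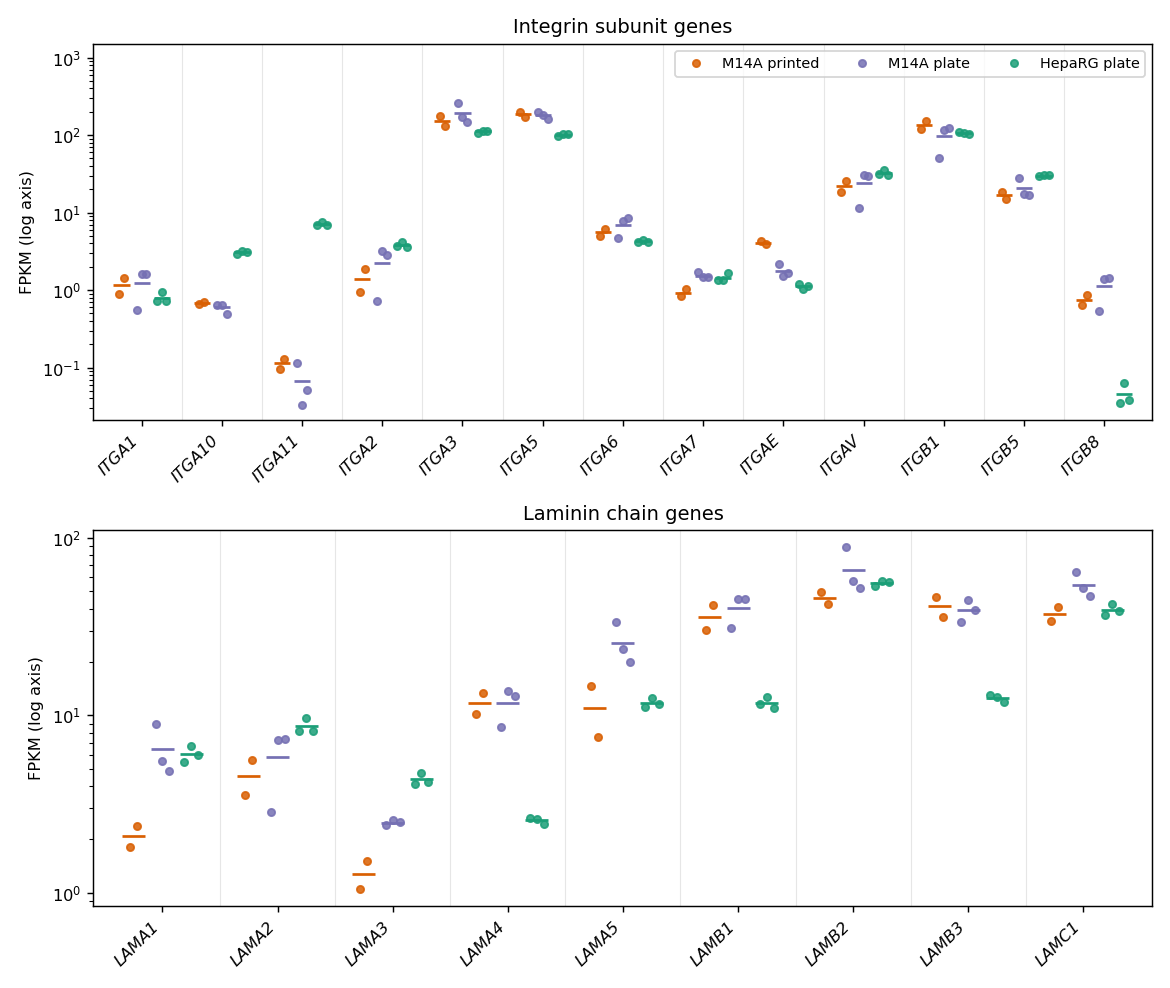
FPKM (log axis) of the 22 tested integrin and laminin genes in each library, with M14A printed (2 points), M14A plate (3 points) and HepaRG plate (3 points) for each gene and a line at the group mean. ITGA3, ITGA5 and ITGB1 lie at 96.2 FPKM or more except ITGB1 in M14A plate library 1, at 51.1 FPKM, ITGA11 is near 7 FPKM in HepaRG and near 0.1 FPKM in both M14A groups, and LAMA4, LAMB1 and LAMB3 are higher in both M14A groups than in HepaRG.

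A complex needs all of its chains, so the lowest chain gives the level up to which the RNA of every chain is present. Of 24 known integrin pairs, 11 had a lowest chain of at least 1 FPKM on average in at least 1 group, as had 10 laminin trimers. For laminin-411 and laminin-421 the lowest chain was LAMA4, at 11.8 ± 2.26 FPKM in printed, 11.7 ± 2.71 FPKM in M14A plate and 2.57 ± 0.107 FPKM in HepaRG plate libraries (SD, n = 2, 3 and 3). For laminin-521 it was LAMA5, at 11.04 ± 4.98 FPKM in printed, 25.7 ± 7.04 FPKM in M14A plate and 11.8 ± 0.694 FPKM in HepaRG plate. For integrin α11β1 it was ITGA11, at 0.113 ± 0.0242 FPKM in printed, 0.0665 ± 0.0431 FPKM in M14A plate and 7.17 ± 0.411 FPKM in HepaRG plate. For αVβ8 it was ITGB8, at 0.750 ± 0.154 FPKM in printed, 1.12 ± 0.510 FPKM in M14A plate and 0.0453 ± 0.0155 FPKM in HepaRG plate. RNA levels do not show that a trimer or pair was assembled.

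The first comparison set M14A plate against HepaRG plate and bears on how the transfected cells and HepaRG compare when both grow in flasks. Laminin genes for the α4, α5, β1 and β3 chains were higher in M14A, as were the integrin genes ITGB8, ITGA5, ITGA3, ITGA6 and ITGAE. The collagen receptor genes ITGA11 and ITGA10 and the laminin gene LAMA3 were lower. A call means an adjusted p below 0.05 from limma on log2(FPKM + 1), Benjamini-Hochberg adjusted over 14349 genes, and fold changes are on this scale, which understates those of low genes. Of the 22 members tested 9 were called higher, where 16.1% of all genes tested were, and 3 were called lower, where 14.7% of all genes were. The groups did not overlap for 10 members that were higher and 6 that were lower in M14A, against 25.7 and 27.4% of all genes. The median log2 fold change was 0.24 over these 22 members and -0.04 over all genes tested. With equal FPKM totals the median of all genes was -0.20, and the higher share among all calls 38.0% in place of 52.3%.

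LAMA4, an α chain known from vessels and mesenchyme (chr6:112108760-112254939, minus strand), measured 8.61, 13.7 and 12.8 FPKM in M14A plate and 2.65, 2.61 and 2.45 FPKM in HepaRG plate libraries. Every M14A library was above every HepaRG library. The log2 fold change was 1.81 ± 0.18 (SE; limma adjusted p = 0.00012). LAMB1, the β chain of laminin-111, laminin-211, laminin-411 and laminin-511 (chr7:107923799-108003255, minus strand), measured 31.2, 45.1 and 45.2 FPKM in M14A plate and 11.7, 12.6 and 11.1 FPKM in HepaRG plate, with a log2 fold change of 1.68 ± 0.19 (limma adjusted p = 0.00022). LAMB3, a β chain known from epithelia (chr1:209614870-209652466, minus strand), measured 33.4, 44.7 and 39.5 FPKM in M14A plate and 13.1, 12.6 and 11.9 FPKM in HepaRG plate, with a log2 fold change of 1.56 ± 0.15 (limma adjusted p = 0.00011). The M14A and HepaRG values did not overlap for either β chain.

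LAMA5, the α chain of laminin-511 and laminin-521, found under most adult epithelia (chr20:62307955-62367312, minus strand), measured 33.6, 23.5 and 20.0 FPKM in M14A plate and 11.2, 12.6 and 11.6 FPKM in HepaRG plate. The groups did not overlap, but the M14A values spread widely, and library 1 was the highest. The log2 fold change was 1.03 ± 0.25 (limma adjusted p = 0.0144), and the call was lost without HepaRG plate library 1 or 3, at unchanged sizes of 1.00 and 1.02. LAMA3, the α chain of the 3-series laminins of epithelia (chr18:23689443-23956222, plus strand), went the other way, with 2.40, 2.56 and 2.51 FPKM in M14A plate and 4.10, 4.75 and 4.21 FPKM in HepaRG plate. All M14A values were below all HepaRG values, and the log2 fold change was -0.62 ± 0.12 (limma adjusted p = 0.00480). LAMC1, the γ1 chain, was not called, with 64.1, 51.9 and 47.3 FPKM in M14A plate, 36.9, 42.2 and 39.0 FPKM in HepaRG plate and a limma adjusted p of 0.0514. The groups did not overlap for LAMC1, and it was called higher in 9 alternatives, among them without M14A plate library 1 (0.33, limma adjusted p = 0.0378) and without M14A plate library 3 (0.54, limma adjusted p = 0.0360).

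As a share of the summed α chain level, LAMA4 made up 15.3 to 27.0% in M14A plate and 7.18 to 8.37% in HepaRG plate libraries. LAMB2, the β chain of laminin-121, laminin-221, laminin-421 and laminin-521, made up 38.0 to 57.7% of the summed β level in M14A plate and 68.5 to 71.2% in HepaRG plate. Its own level, 88.3, 57.5 and 52.0 FPKM in M14A plate and 53.9, 57.5 and 56.8 FPKM in HepaRG plate, was not called (log2 fold change 0.19 ± 0.20, 95% interval -0.25 to 0.64). The 2 α chains not called were LAMA1, at 8.98, 5.51 and 4.87 FPKM in M14A plate and 5.47, 6.76 and 5.98 FPKM in HepaRG plate, and LAMA2, at 2.86, 7.25 and 7.32 FPKM in M14A plate and 8.20, 9.71 and 8.18 FPKM in HepaRG plate. Their log2 fold changes had 95% intervals of -0.42 to 0.50 and -1.26 to 0.08. Without M14A plate library 1 they were -0.19 for LAMA1 and -0.22 for LAMA2, and that of LAMB2 was -0.03.

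**Figure D2:**
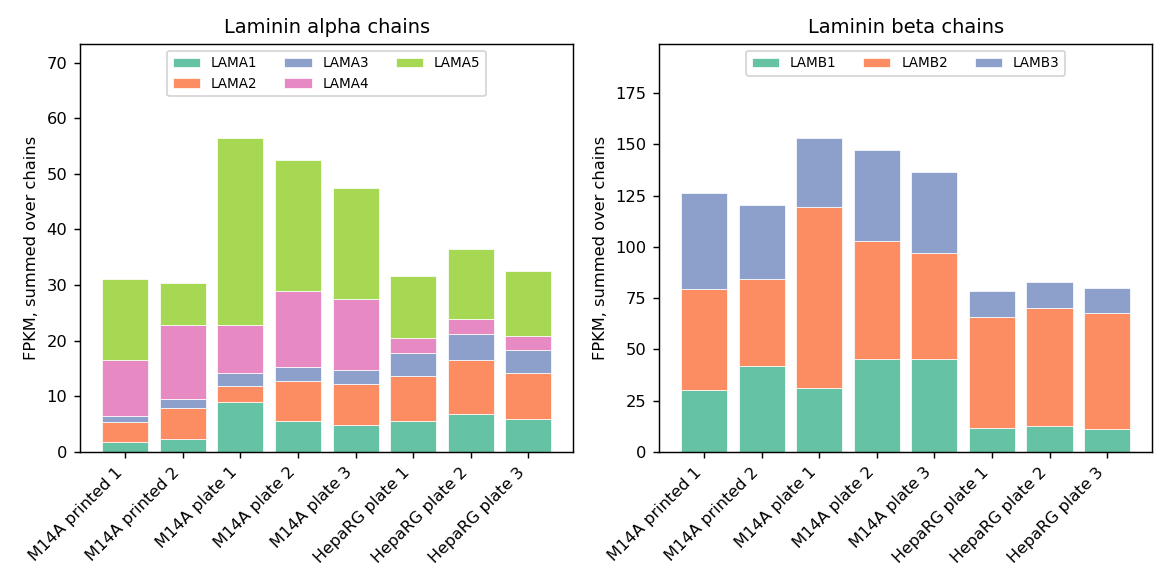
FPKM of the laminin α chain genes (left) and of LAMB1, LAMB2 and LAMB3 (right; LAMB4 is at most 0.0942 FPKM and not drawn), stacked for each of the 8 libraries. The LAMA4, LAMB1 and LAMB3 segments are larger in all 5 M14A libraries than in the 3 HepaRG libraries, and the summed α level is 30.4 and 31.1 FPKM in printed against 47.5 to 56.4 FPKM in M14A plate libraries.

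Of the 4 collagen receptor α genes 2 were called lower in M14A and none higher, where 14.7 and 16.1% of all genes tested were. ITGA11, a collagen receptor known from fibroblasts (chr15:68296533-68432162, minus strand), measured 0.115, 0.0330 and 0.0514 FPKM in M14A plate, from 20, 7 and 11 reads, and 6.97, 7.64 and 6.90 FPKM in HepaRG plate. The HepaRG mean was 108 times that of M14A plate, the groups were far apart, and the log2 fold change was -2.94 ± 0.11 (limma adjusted p = 4.3e-07). Its printed libraries measured 0.0963 and 0.131 FPKM, also far below HepaRG. ITGA10, a collagen receptor known from cartilage (chr1:145891208-145910189, minus strand), measured 0.644, 0.648 and 0.498 FPKM in M14A plate and 2.95, 3.24 and 3.12 FPKM in HepaRG plate, without overlap. Its HepaRG mean was 5.20 times that of M14A plate and its log2 fold change was -1.36 ± 0.11 (limma adjusted p = 2.7e-05). ITGA2, a collagen receptor of epithelia and platelets, was not called, with 0.728, 3.17 and 2.88 FPKM in M14A plate and 3.76, 4.17 and 3.57 FPKM in HepaRG plate (log2 fold change -0.67 ± 0.32, 95% interval -1.39 to 0.05). Without library 1 its log2 fold change was -0.26. ITGA1, at 0.556, 1.60 and 1.60 FPKM in M14A plate and 0.715, 0.933 and 0.713 FPKM in HepaRG plate, was not called with library 1 and was called higher without it (log2 fold change 0.54, limma adjusted p = 0.0138).

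Of the 3 laminin receptor α genes 2 were called higher in M14A and none lower, where 16.1 and 14.7% of all genes tested were. ITGA3 (chr17:50055968-50090481, plus strand) measured 258, 169.8 and 148 FPKM in M14A plate and 108, 113 and 114 FPKM in HepaRG plate, without overlap. Its log2 fold change was 0.74 ± 0.21 (limma adjusted p = 0.0301), and the call was lost without any 1 of the HepaRG libraries (0.71 to 0.75). ITGA6 (chr2:172427354-172506282, plus strand) measured 4.75, 7.69 and 8.52 FPKM in M14A plate and 4.16, 4.40 and 4.21 FPKM in HepaRG plate, and the 2 groups did not overlap. Its adjusted p was 0.0497 (limma), its log2 fold change 0.57 ± 0.19, and the call was lost without any 1 library other than M14A plate library 1, without which it was 0.79. ITGA7, a laminin receptor of muscle, had 1.70, 1.45 and 1.47 FPKM in M14A plate and 1.36, 1.34 and 1.64 FPKM in HepaRG plate, a log2 fold change of 0.05 ± 0.11 and overlapping groups.

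ITGA5 (chr12:54395261-54419460, minus strand) measured 199, 184 and 163 FPKM in M14A plate and 96.2, 102 and 104 FPKM in HepaRG plate. All M14A values lay above all HepaRG values, with a log2 fold change of 0.84 ± 0.13 (limma adjusted p = 0.00141). ITGB8, a β subunit that pairs with αV and is known for activating latent TGF-β (chr7:20330702-20415754, plus strand), measured 0.533, 1.38 and 1.45 FPKM in M14A plate and 0.0350, 0.0631 and 0.0378 FPKM in HepaRG plate. The M14A plate mean was 24.7 times the HepaRG mean and the log2 fold change was 0.99 ± 0.19 (limma adjusted p = 0.00421), although the highest value was only 1.45 FPKM. ITGAE, the αE subunit known from T cells in epithelia (chr17:3714628-3801243, minus strand), measured 2.14, 1.53 and 1.64 FPKM in M14A plate and 1.20, 1.03 and 1.12 FPKM in HepaRG plate, without overlap (log2 fold change 0.39 ± 0.12, limma adjusted p = 0.0399). That call was lost without any 1 of 6 libraries, M14A printed 1 or 2, M14A plate 3 or HepaRG plate 1, 2 or 3 (0.35 to 0.42) and with the replicate number as a block (limma adjusted p = 0.0539).

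The remaining 3 integrin genes were not called. ITGB1 measured 51.1, 118 and 125 FPKM in M14A plate and 111, 108 and 102 FPKM in HepaRG plate, with M14A plate library 1 below the other 5 flask libraries (log2 fold change -0.23 ± 0.31, 95% interval -0.93 to 0.48). ITGAV measured 11.4, 30.8 and 29.7 FPKM in M14A plate and 31.6, 35.5 and 30.5 FPKM in HepaRG plate (95% interval -1.32 to 0.23), again with library 1 lowest. Without that library the log2 fold change was 0.18 for ITGB1 and -0.10 for ITGAV, neither called (limma adjusted p = 0.224 and 0.603). ITGB5 measured 28.0, 17.5 and 16.6 FPKM in M14A plate and 29.6, 30.2 and 30.3 FPKM in HepaRG plate, without overlap (log2 fold change -0.55 ± 0.20, limma adjusted p = 0.0644), and was called lower without library 1 (-0.78, limma adjusted p = 0.000777).

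Summed markers of liver cell types differed between the lines for some lists and overlapped for the biliary list. The summed level of the stellate and fibroblast list was 62.9 and 63.1 FPKM in printed, 31.4 to 44.9 FPKM in M14A plate and 8.53 to 8.93 FPKM in HepaRG plate, a sum carried by 2 of its 5 genes, with DCN and ACTA2 called higher between the lines and COL1A1 and PDGFRB called lower. COL1A1 averaged 0.785 FPKM in M14A plate and 1.91 FPKM in HepaRG plate, and PDGFRB 0.0698 FPKM in M14A plate and 1.80 FPKM in HepaRG plate (limma adjusted p = 0.00637 and 3.7e-05). The summed level of the hepatocyte list was 749 and 753 FPKM in printed, 432 to 583 FPKM in M14A plate and 13.8 to 14.8 FPKM in HepaRG plate. Biliary markers summed to 32.5 and 37.3 FPKM in printed, 15.4 to 53.2 FPKM in M14A plate and 45.5 to 49.9 FPKM in HepaRG plate. The wide M14A plate range follows KRT19, at 49.0 FPKM in library 1 and 11.6 FPKM in each of libraries 2 and 3. Of the 3 biliary markers tested, KRT7 was called higher and SOX9 lower between the lines, and KRT7 was also called higher after printing. Leukocyte markers, which bear on ITGAE, summed to 9.94 and 11.8 FPKM in printed, 6.60 to 10.6 FPKM in M14A plate and 2.26 to 2.89 FPKM in HepaRG plate. The 2 that were tested, LAPTM5 and CD14, were called higher between the lines and not called after printing. LAPTM5 averaged 4.40 FPKM in M14A plate and 0.768 FPKM in HepaRG plate (limma adjusted p = 8.9e-05). CD14 averaged 3.55 FPKM in M14A plate and 1.71 FPKM in HepaRG plate (limma adjusted p = 0.0197). PTPRC, of the same list, was at 0 in both printed libraries and at no more than 0.0208 FPKM elsewhere. The part of these shifts in the integrin and laminin results was not tested, and in bulk RNA more or fewer cells of a type and more or less RNA per cell cannot be told apart.

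The second comparison set M14A printed against M14A plate, 4 h after printing. Of the 9 laminin genes tested 4 were called lower and none higher, and of the 13 integrin genes 11 were not called. LAMA1, LAMA5, LAMA3 and LAMC1 and the laminin receptor gene ITGA7 were called lower, and ITGAE was the 1 member called higher. These 5 lower calls among 22 members stand beside 15.5% of all genes called lower, and the 1 higher call beside 17.7% called higher. The median log2 fold change was -0.24 over the 22 members and 0.01 over all genes tested. It was -0.02 over the 13 integrin genes and -0.48 over the 9 laminin genes. The members have a greater median length than all genes tested, and fold changes by gene length are given below. The groups did not overlap for 2 members that were higher and 6 that were lower in printed cells, against 26.9 and 24.4% of all genes. Equal FPKM totals moved the median of all genes to -0.51 and the higher share among all calls to 6.96% in place of 53.3%. With them 12 of the 22 members were called lower, as were 6620 of the 14349 genes tested. Both comparisons use the same M14A plate libraries, so their values are given side by side and not set against each other.

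LAMA1, an α chain of early embryonic basement membranes (chr18:6941744-7117814, minus strand), measured 1.80 and 2.39 FPKM in printed and 8.98, 5.51 and 4.87 FPKM in M14A plate libraries. Both printed values were below all M14A plate values, and the M14A plate mean was 3.08 times the printed mean. The log2 fold change was -1.23 ± 0.23 (limma adjusted p = 0.00456), and LAMA1 was called lower in every alternative run. LAMA1 shares 11.1% of its exon bases with genes on the opposite strand, whose reads cannot be told apart without a strand setting.

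LAMA5 measured 14.6 and 7.52 FPKM in printed and 33.6, 23.5 and 20.0 FPKM in M14A plate, without overlap, and the printed libraries differed from each other by more than the gap between the nearest printed and M14A plate values. Its log2 fold change was -1.18 ± 0.28 (limma adjusted p = 0.0130). Without M14A plate library 1 it was -0.98, and without printed library 2 it was -0.75 and no longer called. LAMA3 measured 1.05 and 1.52 FPKM in printed and 2.40, 2.56 and 2.51 FPKM in M14A plate, without overlap (log2 fold change -0.62 ± 0.13, limma adjusted p = 0.00867), and was -0.47 and not called without printed library 1. LAMC1 (chr1:183023460-183145592, plus strand) measured 34.1 and 40.8 FPKM in printed and 64.1, 51.9 and 47.3 FPKM in M14A plate, without overlap. Its log2 fold change was -0.52 ± 0.17 (limma adjusted p = 0.0425), and the call was lost without any 1 of 6 libraries, both printed, M14A plate 2 and all 3 HepaRG plate libraries (-0.65 to -0.40).

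The other 5 laminin genes tested were not called. LAMA4 measured 10.2 and 13.4 FPKM in printed and 8.61, 13.7 and 12.8 FPKM in M14A plate, with a 95% interval of -0.44 to 0.48 for the log2 fold change. LAMB1 measured 30.1 and 42.0 FPKM in printed and 31.2, 45.1 and 45.2 FPKM in M14A plate (95% interval -0.64 to 0.31). LAMB3 measured 46.7 and 35.9 FPKM in printed and 33.4, 44.7 and 39.5 FPKM in M14A plate (95% interval -0.32 to 0.46), and the groups overlapped for both β chains. With equal FPKM totals LAMB3 turned to lower (-0.67). LAMB2 measured 49.6 and 42.4 FPKM in printed and 88.3, 57.5 and 52.0 FPKM in M14A plate, without overlap, and was not called (log2 fold change -0.48 ± 0.22, limma adjusted p = 0.127). LAMA2 measured 3.56 and 5.57 FPKM in printed and 2.86, 7.25 and 7.32 FPKM in M14A plate (95% interval -0.98 to 0.52). As a share of the summed α chain level, LAMA4 made up 32.6 and 44.0% in printed and 15.3 to 27.0% in M14A plate, while LAMA1 made up 5.79 and 7.88% in printed and 10.3 to 15.9% in M14A plate.

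ITGAE measured 4.24 and 3.95 FPKM in printed and 2.14, 1.53 and 1.64 FPKM in M14A plate. Both printed values were above those of the other 6 libraries, and the log2 fold change was 0.88 ± 0.13 (limma adjusted p = 0.00215). It was called higher in every alternative in which it was tested. Its known partner ITGB7 was listed at 0 in both printed libraries and had at most 0.0457 FPKM in M14A plate. In all, 7.59% of the exon bases of ITGAE lie in other genes on the opposite strand. HASPIN, a kinase gene that is 1 of these, measured 1.42 and 0.661 FPKM in printed and 6.53, 3.53 and 3.92 FPKM in M14A plate and went in the other direction. The level of the other such gene is not given, and the part of shared exon bases in the ITGAE change was not tested. ITGA7 (chr12:55684568-55716043, minus strand) measured 0.832 and 1.03 FPKM in printed and 1.70, 1.45 and 1.47 FPKM in M14A plate, without overlap. Its log2 fold change was -0.40 ± 0.13 (limma adjusted p = 0.0413), and the call was lost without any 1 library other than M14A plate library 1.

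The abundant integrin genes were not called between printed and flask-grown M14A on the deposited scale. ITGA5 measured 200.3 and 173 FPKM in printed and 199, 184 and 163 FPKM in M14A plate, with a 95% interval of -0.29 to 0.36 for the log2 fold change. It turned to lower under 3 other scalings, quantile normalization and equal FPKM totals with or without mitochondrially encoded genes. ITGA3 measured 175 and 129.5 FPKM in printed and 258, 169.8 and 148 FPKM in M14A plate (log2 fold change -0.31 ± 0.24, 95% interval -0.85 to 0.24). Without M14A plate library 1 it was -0.07, whereas ITGA3 was called lower under the same 3 scalings (-1.07 to -0.89). ITGB1 measured 119.6 and 153 FPKM in printed and 51.1, 118 and 125 FPKM in M14A plate, with a 95% interval of -0.22 to 1.35. Without M14A plate library 1 its log2 fold change was 0.16 (limma adjusted p = 0.304). ITGAV measured 18.4 and 25.9 FPKM in printed, ITGB5 18.7 and 14.9 FPKM and ITGA6 5.03 and 6.20 FPKM, and each overlapped its M14A plate values (95% intervals -0.87 to 0.85, -0.76 to 0.25 and -0.73 to 0.24). With equal FPKM totals ITGB5 was called lower, at -0.97, and at -0.80 without mitochondrially encoded genes. Without M14A plate library 1, the genes ITGA2, ITGA6, ITGAV, ITGB8 and LAMA2 were also called lower, with log2 fold changes of -0.77, -0.46, -0.45, -0.47 and -0.60. That made 10 lower calls among the 22 members. Over all 14349 genes tested, the lower calls rose from 2226 to 3866 without that library.

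**Figure D3:**
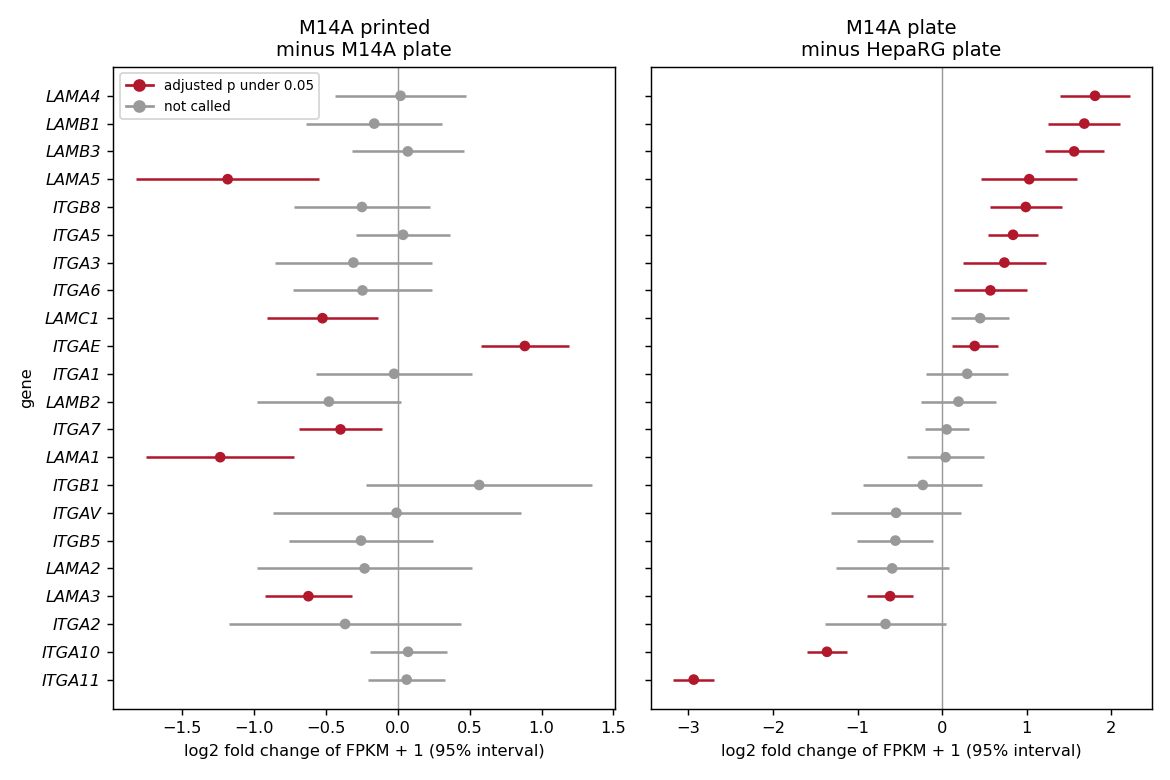
Log2 fold changes of FPKM + 1 with 95% intervals for the 22 tested members, M14A printed minus M14A plate on the left and M14A plate minus HepaRG plate on the right, with called genes in red. LAMA4, LAMB1 and LAMB3 are near 0 on the left and above 1.5 on the right, whereas LAMA1 and LAMA5 are below -1 on the left.

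Members with low GC content read low in M14A plate library 1, and long genes read low after printing. Over the 22 members, the log2 difference of library 1 from libraries 2 and 3 had a Spearman's rho of 0.77 with GC content, given as a description, since the points share their libraries. ITGAV, ITGB1, ITGA2 and LAMA2 were the lowest in library 1, at differences of -1.34, -1.23, -1.22 and -1.10, and ITGA3, LAMA1, ITGB5 and LAMB2 the highest, at 0.70, 0.69, 0.68 and 0.68. Between printed library 1 and library 2 the same description gave 0.79 over the members and 0.58 over all genes. The fold change after printing had a rho of -0.44 with gene length over the members and of -0.28 over all genes tested. The members are long, with a median of 8175.5 bases among those tested against 4159 over all genes. Over all genes the median log2 fold change was 0.21 at up to 2 kb and -0.31 above 10 kb, where 30.2% were called lower. The 8 members above 10 kb had a median of -0.24. At 7 to 10 kb the median was -0.24 over 6 members and -0.16 over all genes. At 4 to 7 kb it was -0.09 over 8 members and -0.03 over all genes. When the length trend was removed from each library, LAMA1 was the 1 member still called lower, LAMA5 was at -0.80, LAMA3 at -0.23, LAMC1 at -0.31 and ITGA7 at -0.26, and ITGAE was still called higher. The part of gene length in these calls was not tested further.

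**Figure D4:**
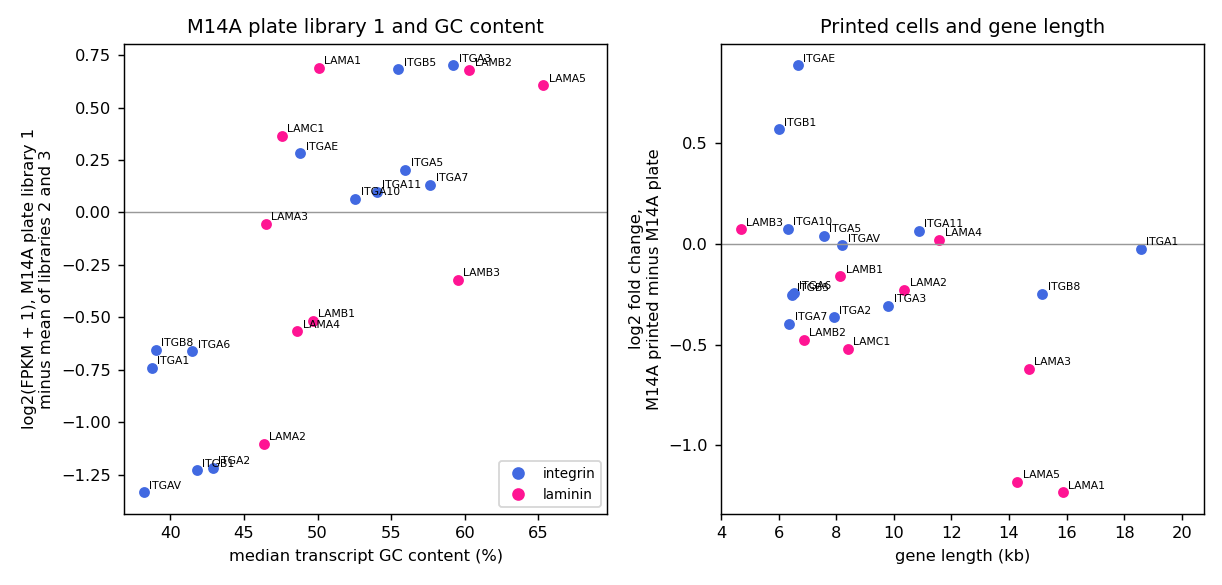
Left, difference in log2(FPKM + 1) between M14A plate library 1 and the mean of libraries 2 and 3 against the median GC content of each member's transcripts; right, log2 fold change after printing against gene length in kb. ITGAV, ITGB1 and ITGA2 at the low GC end lie below -1.2 in library 1, and LAMA1, LAMA5 and LAMA3 are among the longest members and the lowest after printing. ITGA1, ITGA6 and ITGB8, also at the low GC end, lie at -0.74, -0.66 and -0.65 on the left. On the right the longest member, ITGA1, lies at -0.02 and LAMA4, also above 10 kb, at 0.02.

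The partners of laminin in the basement membrane were also measured. HSPG2, which encodes the proteoglycan perlecan, measured 14.5 and 8.18 FPKM in printed, 62.6, 62.4 and 51.1 FPKM in M14A plate and 18.7, 24.4 and 21.4 FPKM in HepaRG plate. Its log2 fold change was -2.32 ± 0.23 after printing (limma adjusted p = 0.00058) and 1.41 ± 0.21 between the lines (limma adjusted p = 0.00111), and neither pair of groups overlapped. Of 13 basement membrane partners tested (14 listed), 1 was called higher and 7 lower after printing, against 17.7 and 15.5% of all genes, and 2 higher and 2 lower between M14A plate and HepaRG plate, against 16.1 and 14.7%. The 7 lower calls became 4 without printed library 2 or with the length trend removed and 3 with only the compared groups fitted. The 2 lower calls between the lines became 5 without M14A plate library 1 and 1 without M14A plate library 2 or any 1 HepaRG library. RPSA, which encodes both a ribosomal protein and a laminin receptor precursor, was the 1 higher after printing, at 895 and 721 FPKM in printed and 349, 249.6 and 252 FPKM in M14A plate (log2 fold change 1.52 ± 0.18, limma adjusted p = 0.00096). AGRN, which encodes agrin, was higher in M14A plate at 122, 105 and 95.5 FPKM than in HepaRG plate at 42.9, 44.7 and 44.0 FPKM (log2 fold change 1.27 ± 0.23, limma adjusted p = 0.00351). The median log2 fold change of the 13 was -0.64 after printing and -0.04 between the lines.

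Of 25 cytoplasmic partners of integrins tested (28 listed), 3 were called higher and 6 lower after printing (17.7 and 15.5% of all genes), and 2 higher and 7 lower between the lines (16.1 and 14.7% of all genes). TNS3, a tensin of focal adhesions, had 7.28 and 7.40 FPKM in printed and 27.9, 23.0 and 20.5 FPKM in M14A plate (log2 fold change -1.56 ± 0.16, limma adjusted p = 0.00061). BCAR1, the adhesion scaffold p130Cas, had 14.8 and 7.38 FPKM in printed and 34.2, 21.7 and 19.6 FPKM in M14A plate (log2 fold change -1.14 ± 0.30, limma adjusted p = 0.0186). SRC, a kinase that acts at adhesions, had 35.2, 22.5 and 20.9 FPKM in M14A plate and 1.63, 1.73 and 1.67 FPKM in HepaRG plate (log2 fold change 3.31 ± 0.19, limma adjusted p = 5.6e-06). CD9, a tetraspanin partner of integrins, had 0.811, 0.615 and 0.525 FPKM in M14A plate and 3.60, 3.43 and 3.33 FPKM in HepaRG plate (log2 fold change -1.43 ± 0.11, limma adjusted p = 3e-05). The groups did not overlap for any of these 4 genes.

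Of 4 hemidesmosome components, 1 was called higher and none lower between the lines, against 16.1 and 14.7% of all genes. After printing 1 was called higher and 1 lower, against 17.7 and 15.5% of all genes. COL17A1 was the 1 called between the lines, with 3.10, 3.15 and 2.87 FPKM in M14A plate and 0.0376, 0.0123 and 0.0811 FPKM in HepaRG plate (log2 fold change 1.95 ± 0.11, limma adjusted p = 5e-06). After printing PLEC, the cytolinker plectin, was lower at 24.5 and 10.4 FPKM against 104, 80.1 and 67.5 FPKM in M14A plate, and CD151, a tetraspanin partner of α3β1, was higher at 309 and 229.6 FPKM against 180.4, 131 and 129 FPKM (log2 fold changes -2.29 ± 0.32 and 0.87 ± 0.19, limma adjusted p = 0.00153 and 0.0102). The call of CD151 was lost without printed library 1, under quantile normalization, with equal FPKM totals and with only the compared groups fitted. Of 18 other integrin ligands tested (27 listed), 8 were called higher and 7 lower between the lines, against 16.1 and 14.7% of all genes. For these ligands 2 higher and 2 lower calls were made after printing, against 17.7 and 15.5% of all genes. The higher calls after printing became 6 without M14A plate library 1, 1 without printed library 1 and 0 without printed library 2, and the lower calls 4 without M14A plate library 1 and 1 without printed library 1. The fibrinogen chain genes FGB and FGA had 90.3, 130.2 and 141 FPKM and 116, 59.2 and 60.1 FPKM in M14A plate against 2.37, 2.15 and 1.82 FPKM and 2.75, 3.16 and 3.09 FPKM in HepaRG plate (log2 fold changes 5.26 ± 0.19 and 4.24 ± 0.24, limma adjusted p = 4.3e-07 and 5e-06). FGB is also a member of the hepatocyte marker list. After printing FN1, the fibronectin gene, had 74.7 and 102 FPKM in printed and 149, 206 and 188 FPKM in M14A plate (log2 fold change -1.03 ± 0.19, limma adjusted p = 0.00462), and FGB had 181 and 223 FPKM in printed (log2 fold change 0.76 ± 0.21, limma adjusted p = 0.0241).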

How the data were processed

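The authors deposited FPKM per gene for each library, with the gene lengths used. The tools listed in the submitters' processing notes are featureCounts 1.5.0-p3 and HISAT2 2.0.5. Their options, the strand setting and the genome build were not given in the sources used here. Gene coordinates equal those of GENCODE 29 on GRCh38 for all 58735 genes. FPKM times length was a whole multiple of 1 read (tolerance 0.01) for 100% of non-zero values. The implied denominators were 0.818 and 0.853 times the reads in printed, 0.968 to 1.19 times in M14A plate and 1.18 to 1.20 times in HepaRG plate libraries. FPKM totals also differed, from 254141 to 514152, and the part of the denominators in this was not tested. Replicates differed from each other by more than sampling noise (chi-square per gene 2.69 to 69.3), and none was a duplicate.

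A minimum of 1 FPKM in 2 or more libraries left 14349 genes. Their log2(FPKM + 1) values went into limma 3.58.1 under R 4.3.3 (eBayes with trend), two-sided, with all 8 libraries in 1 fit of 3 group means and 5 residual degrees of freedom, and with Benjamini-Hochberg adjustment over all genes. The fit was tested on simulated reads. The members, gene lists and tests were chosen with earlier results of these data known. Members that were called in either comparison or had a group mean of at least 5 FPKM were to be given library by library, and up to 2 called genes with the largest change were named per list and comparison; other members named are described after their values were seen. GC content is the median over a gene's transcripts. Alternatives covered the pseudocount, filters, scalings, trends with gene length and GC content, the replicate block, a threshold of 0.01, leaving out each library, and voom weights for the recovered reads. Those that removed a GC trend or kept only protein-coding genes were chosen after seeing the data. A member gene of the set is not reported here.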

Additional observations from a re-analysis of the deposited data

How the results depend on the processing

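With the replicate number as a block, 3 members were called lower after printing, LAMA1, LAMA3 and LAMA5, in place of 5, since ITGA7 (limma adjusted p = 0.108) and LAMC1 (0.0597) were no longer called. Between the lines ITGAE was lost (0.0539) and ITGB5 was called lower (0.0493). The labels do not say that the numbers mark shared material, and whether they pair libraries is not settled by the data: deviations from the group means of same-numbered libraries correlated at -0.16 to 0.08 between M14A plate and HepaRG plate, 0.36 and 0.49 between printed and M14A plate, and -0.04 and 0.07 between printed and HepaRG plate. Printed library 2 correlated at 0.43 with M14A plate library 3, of another number. With 2 printed libraries, each value of 1 has an opposite of equal size in the other. The number lower after printing was 3 with no filter, 3 with a filter at 5 FPKM, 3 with the GC and length trend removed (ITGA6, LAMA1 and LAMA5), 2 at a threshold of 0.01, and 1 with the length trend removed or only the compared groups fitted. It was 12 with equal FPKM totals and 9 with equal totals without mitochondrially encoded genes. Under these 2 scalings 6620 and 5363 of the 14349 genes tested were called lower. The number higher after printing was 2 with no filter, where ITGA8 joined ITGAE, 0 with a filter at 5 FPKM, which leaves ITGAE out, 4 with the GC and length trend removed (ITGA1, ITGA11, ITGA5 and ITGAE) and 5 when M14A plate library 1 was also left out. Between the lines 5 members were higher at a threshold of 0.01, and 1 was lower with a filter at 5 FPKM, which leaves ITGA10 and LAMA3 out. Leaving out 1 library gave 2 to 10 lower calls and 1 higher call after printing, and 5 to 11 higher and 3 to 4 lower calls between the lines, with 10 and 11 both without M14A plate library 1. Lower calls after printing numbered 2 without either printed library and 3 without M14A plate library 2 or any 1 HepaRG library, and higher calls between the lines 5 without HepaRG library 1 or 3. A lone printed library was assumed to vary like the other groups. Over all genes, leaving out M14A plate library 1 raised the lower calls after printing from 2226 to 3866. It raised the higher calls between the lines from 2317 to 2912.

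With equal totals the median over all genes was -0.51 after printing and -0.20 between the lines. The higher share among all calls was 53.3% after printing and 52.3% between the lines as deposited, 6.96% and 38.0% with equal totals, and 13.3% and 45.2% with equal totals without mitochondrially encoded genes. ITGA5 turned to lower after printing, at -0.69 with quantile normalization, -0.72 with equal totals and -0.54 with equal totals without mitochondrially encoded genes, and LAMB3 did at -0.67 with equal totals. ITGA1 turned to higher after printing with the GC and length trend removed, at 0.32 with all libraries and 0.32 without M14A plate library 1. ITGB1 turned to higher between the lines with that trend removed and that library left out, at 0.23. The cause of these turns was not tested. LAMA4, LAMB1, LAMB3, ITGA5, ITGB8, ITGA11, ITGA10 and LAMA3 kept their call between the lines in all alternatives in which they were tested. Of 44 fold changes, 18 kept their status of called or not called in all of theirs, some of them near 0 with a changing sign. At this depth 1 read in a gene of 1 kb is 0.0435 to 0.0747 FPKM, which limits what can be said of the 16 low members.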

Other observations

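Among the 16 members too low to be tested, ITGA8, an α subunit known from stellate and smooth muscle cells, measured 0.357 and 0.295 FPKM in printed, 0.0998, 0.0952 and 0.135 FPKM in M14A plate and 0.0141, 0.0173 and 0 FPKM in HepaRG plate libraries. These values rest on 36 reads in each printed library, 12 to 20 reads in each M14A plate library and 0 to 3 reads in each HepaRG library. Without a filter on low values its log2 fold change was 0.26 after printing (limma adjusted p = 0.0114). ITGB3, the β subunit of the vitronectin receptor αVβ3, had 51.6% of its exon bases in another gene, and ITGB7 had 42.1%, and how the authors counted shared reads is not given in the sources used here, so both levels are uncertain.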
